A study of Homo sapiens with 8 samples.

Results

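The measurements described here are the abundances of 139 single guide RNAs (sgRNAs) against 36 microRNA hairpins that are widely studied in cancer, out of 119461 sgRNAs in a pooled CRISPR/Cas9 loss-of-function screen. The guides were taken by the name of their target, as all guides against let-7 hairpins or against miR-10b, miR-17, miR-18a, miR-19a, miR-19b, miR-20a, miR-21, miR-31, miR-34a, miR-34b, miR-34c, miR-92a, miR-141, miR-143, miR-145, miR-155, miR-200a, miR-200b, miR-200c, miR-205, miR-221, miR-222 or miR-429. The rule itself used no measured value, although earlier results of these data were known when the list was chosen. They were among 6834 guides against 1795 microRNAs, and all 139 belonged to part A of the human GeCKOv2 library. Most hairpins had 4 guides, but miR-19a and miR-19b-2 had 3 each and miR-20a had 1.

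The MB157R cells were derived from the triple-negative breast cancer line MB157 by prolonged exposure to a γ-secretase inhibitor (GSI), a drug that blocks the cleavage by which NOTCH receptors are activated, and here they carried Cas9. Cells carrying the library were selected with puromycin and combined into a single pool. From it, 3 cultures were grown for 14 days with GSI (LY3039478, 10 µM) and 3 with the solvent DMSO, and 2 aliquots were frozen at the start (T0). All 8 libraries therefore share 1 transduction, and p-values of single guides measure the spread between cultures or aliquots of that pool. The exact p-values printed below for hairpins and genes come from robust rank aggregation. They measure how far the ranks of a target's guides gather at one end of all guides.

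MicroRNAs are short RNAs that guide Argonaute proteins to messenger RNAs and lower their translation and stability. They are cut out of hairpin precursors by DROSHA in the nucleus and DICER1 in the cytoplasm, and target choice rests mainly on the seed, bases 2 to 8 of the mature strand. The let-7 and miR-34 families are known as tumour suppressors, miR-34 as a target of p53 and let-7 as a repressor of RAS genes and HMGA2. The miR-200 family and miR-205 repress ZEB1 and ZEB2 and so favour the epithelial state, whereas the miR-17-92 cluster, miR-21, miR-155, miR-221 and miR-222 are known as oncogenic in many tumours. A Cas9 cut is made in the DNA of the hairpin, and neither the cut nor the level of any mature microRNA was measured, so that all values below are abundances of guides.

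Mature sequences from RefSeq (GRCh38.p14) were found for all 36 hairpins, and 34 also had a precursor entry with coordinates (not miR-155 and miR-200a). The strands shown are those of hairpins on which the results below turn, with the seed in capitals. In the let-7 family the seed GAGGUAG was shared by all 11 hairpins, and 3 hairpins (let-7a-1, let-7a-2 and let-7a-3) gave one identical mature strand.
let-7a-5p: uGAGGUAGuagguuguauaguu
let-7d-5p: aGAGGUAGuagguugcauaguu
let-7i-5p: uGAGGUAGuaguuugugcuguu

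The miR-200 family fell into 2 seed groups, miR-200a with miR-141 and miR-200b with miR-200c and miR-429, while no other human mature strand in the RefSeq table had the seed of miR-205.
miR-200a-3p: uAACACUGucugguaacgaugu
miR-141-3p: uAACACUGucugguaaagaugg
miR-200b-3p: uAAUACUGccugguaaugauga
miR-429: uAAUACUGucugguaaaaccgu
miR-205-5p: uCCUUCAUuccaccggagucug

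The oncogenic hairpins named most often below had the following strands, of which miR-221 and miR-222 share their seed and miR-92a is made from 2 hairpins, one in each of the clusters on chromosomes 13 and X.
miR-221-3p: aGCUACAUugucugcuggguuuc
miR-222-3p: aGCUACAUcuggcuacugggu
miR-92a-3p: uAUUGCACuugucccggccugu
miR-155-5p: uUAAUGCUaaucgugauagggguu
miR-21-5p: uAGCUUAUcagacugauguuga

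Several hairpins lie close together in the genome. The 6 hairpins of the miR-17-92 cluster lie within 787 bp of the host gene MIR17HG on chromosome 13, with 36 to 93 bp between neighbours, and miR-221 (chrX:45746157-45746266, minus strand) lies 749 bp from miR-222 in the host gene MIR222HG. The hairpin of miR-205 (chr1:209432133-209432242, plus strand) overlaps an exon of its host gene MIR205HG. In the GENCODE annotation of GRCh38, 27 of the 34 placed hairpins lay in a long non-coding RNA gene on the same strand, 5 in a protein-coding gene on the same strand (among them miR-21 in VMP1 and let-7g in an intron of WDR82) and 2, miR-200b and miR-429, in no gene.

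Total counts per library were 12936376 to 18212884 with GSI, 12052218 to 15549577 with DMSO and 15239588 and 17694082 at T0. One guide against VPS33B took 38.8% of the counts of GSI replicate 1, and counts were therefore scaled by median-ratio size factors. Guides against cytosolic ribosomal proteins, which cells need to grow, had a median log2 fold change of -1.01 for DMSO over T0 and -0.71 for GSI over T0, against 0.25 and 0.18 for 999 non-targeting control guides.

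The cancer microRNA guides were well represented at day 14 and less evenly so at T0. With GSI, 0, 2 and 0 of the 139 guides had a count of 0 in replicates 1 to 3, and with DMSO 2, 3 and 2 guides had none. At T0, 8 guides (5.76%) in replicate 1 and 21 guides (15.1%) in replicate 2 were at 0, against 5.12% and 11.5% of all guides. In all, 111 of the 139 guides had a count in every library, and 4 guides had none in either T0 library while present at day 14. A total of 136 guides passed the filter of a mean count of at least 10, the exceptions being 1 guide each against let-7e, miR-143 and miR-34b. For these 136, the median absolute log2 difference between replicates was 0.62 to 0.74 with GSI and 0.77 to 0.89 with DMSO, and it reached 1.24 between the T0 aliquots.

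To ask which microRNA losses alter the fitness of resistant cells under the inhibitor, GSI was compared with DMSO at day 14. No cancer microRNA guide and no hairpin was called at an adjusted p under 0.05 (edgeR's quasi-likelihood test for guides, robust rank aggregation, RRA, for hairpins, both with Benjamini-Hochberg adjustment). DESeq2 called no guide of them either, nor did limma on hairpin means call a hairpin. The same was true of the whole library, where 0% of 116852 guides and 0% of 20139 targets were called on either side. The median log2 fold change of GSI over DMSO was 0.03 over the 136 guides, with 71 above and 65 below 0, against -0.02 over all guides and 0.01 over 6388 other microRNA guides. At an unadjusted p under 0.05, 1 guide was lower and 1 was higher, against 1.46% and 1.55% of all guides. The libraries of both groups did not overlap for 2 guides that were lower and 2 that were higher with GSI, 1.47% of the 136 each, against 4.36% and 4.72% of all guides. Named after their values were seen, these were HGLibA_58178 against miR-205 and HGLibA_64290 against miR-92a-1 on the low side, and HGLibA_57136 and HGLibA_57137 against let-7i on the high side. The guides also moved less than most: their median absolute log2 fold change was 0.28, against 0.39 for all guides and 0.27 for the non-targeting controls. Their median count exceeded that of all guides in all 8 libraries, but by unlike amounts. It was 87 against 66 in GSI replicate 1, 117 against 112 in GSI replicate 2 and 81 against 80 in DMSO replicate 3. The part of depth in the smaller spread was not tested.

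Of the 33 hairpins that RRA could test (those with at least 4 guides listed and 3 tested, which left out miR-19a, miR-19b-2 and miR-20a), 1 was below an unadjusted p of 0.05 on the low side and 1 on the high side, against 5% and 4.99% of all targets. Among the 30 hairpins with 4 tested guides, all guides pointed one way in 4, against 12.7% of 1319 other microRNAs. These were let-7b and miR-205, negative, and let-7g and let-7i, positive.

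The lowest p on the low side belonged to miR-205. Its mean normalised count over 4 guides was 127, 105 and 91.9 in GSI replicates 1 to 3 and 148, 138 and 148 in DMSO replicates 1 to 3, so that every GSI culture lay below every DMSO culture. Over its guides the median log2 fold change was -0.69 ± 0.69 (SD over 4 guides), with an exact RRA p = 0.018 and an adjusted p of 0.977. The change was uneven between guides, which ranged between -1.44 and -0.06. Guide HGLibA_58178 had normalised counts of 51.2, 23.8 and 37.6 with GSI and 72.3, 81.3 and 151 with DMSO, a log2 fold change of -1.44 ± 0.68 (SE), with an edgeR adjusted p of 1. Guide HGLibA_58180 had 51.2, 65.2 and 21.9 with GSI and 123, 129 and 61.5 with DMSO, where the highest GSI library exceeded the lowest DMSO library. The most abundant guide, HGLibA_58179, had 290, 223 and 243 with GSI and 346, 193 and 248 with DMSO, which overlapped.

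The next hairpins on the low side were miR-34b and let-7f-1. The exact RRA p was 0.22 for miR-34b, whose guide HGLibA_59039 had 56.6, 27.8 and 39.7 normalised counts with GSI and 112, 40.6 and 118 with DMSO, while the other 2 tested guides were positive and the median was 0.35. For let-7f-1 (exact RRA p = 0.244) the median was -0.04, with 2 guides on each side of 0. The only guide against miR-20a, HGLibA_58202, had 222.2, 165 and 99.2 with GSI and 361, 250 and 156 with DMSO, and the groups overlapped.

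On the high side, miR-200a had the lowest p. Its mean normalised count was 122, 123 and 110 with GSI and 77.5, 74.9 and 84.6 with DMSO, again without overlap of the cultures. The median log2 fold change was 0.59 ± 0.37 (SD over 4 guides), with 3 of 4 guides positive, exact RRA p = 0.0326 and an adjusted p of 0.97. No guide of it had groups that did not overlap, the separation being seen in the mean alone. The other hairpin with the same seed, miR-141, had a median of 0.24, and the miR-200b, miR-200c and miR-429 hairpins of the sister seed had 0.18, -0.09 and -0.13. Over the whole miR-200 family, 13 of 20 guides were positive, with a median of 0.20.

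Next in rank, let-7i had all 4 guides positive, with a median of 0.58 ± 0.32 (SD over 4 guides), exact RRA p = 0.0548 and an adjusted p of 0.97. Its mean normalised count was 134, 141.1 and 117 with GSI and 122, 67.3 and 94.5 with DMSO, where GSI replicate 3 fell below DMSO replicate 1. Guide HGLibA_57136 had 83.5, 73.1 and 68.9 with GSI and 41.6, 15.3 and 67.2 with DMSO. Guide HGLibA_57137 had 131, 164 and 169 with GSI and 97.5, 62.3 and 121 with DMSO, and for both guides the groups did not overlap. For let-7d (exact RRA p = 0.116) the median was 0.02, its guide HGLibA_57119 having 378, 287 and 512 with GSI and 193, 311 and 295 with DMSO.

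Single guides with the lowest p on the high side were spread over other hairpins. HGLibA_58494 against miR-31, a microRNA known to restrain metastasis of breast cancer cells, had 175, 153 and 59.5 normalised counts with GSI and 87.7, 27.1 and 35.3 with DMSO (edgeR adjusted p = 1). HGLibA_57954 against miR-17 had 198, 172 and 94.0 with GSI and 150, 23.5 and 35.3 with DMSO, and HGLibA_64291 against miR-92a-1 had 271, 334 and 139 with GSI and 225, 147 and 60.4 with DMSO. In each of these 3 guides a GSI library lay within the range of the DMSO libraries.

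By family, the medians of GSI over DMSO were close to 0 for let-7 (0.04 over 43 guides, range -0.89 to 1.01), miR-17-92 (-0.01 over 20 guides, -1.07 to 1.15), miR-34 (0.03 over 11 guides, -1.13 to 0.69) and miR-143 with miR-145 (0.00 over 7 guides, -0.48 to 0.24). They were -0.25 for miR-221 with miR-222 (8 guides, -1.04 to 0.54), 0.06 for miR-21 (4 guides, -0.40 to 0.65), 0.00 for miR-155 (4 guides, -0.26 to 0.22), -0.14 for miR-10b (4 guides, -1.40 to 0.41) and 0.15 for miR-31 (4 guides, -0.50 to 1.37). The 7 guides against miR-19b-2 and miR-92a-2 on chromosome X had a median of 0.00 (range -0.58 to 0.84). The largest log2 fold change among the 136 guides was 2.15 ± 1.58 (SE), for HGLibA_58156 against miR-200b, a guide averaging 14.8 reads. It had 2.69, 55.6 and 13.6 normalised counts with GSI and 0, 3.61 and 12.5 with DMSO, so GSI replicate 2 alone was high and the groups overlapped. Without that culture the value was 0.60, and without any other single culture it lay between 1.58 and 3.61. The family median furthest from 0 was that of miR-205.

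Culture without drug was described by DMSO against T0. Again 0% of all guides were called, and none of the 136. Of all targets, RRA called 6 on the low side (0.0298%) and 0% on the high side, no cancer microRNA hairpin among them. At an unadjusted p under 0.05, 1 guide was lower and 3 were higher, against 3.55% and 4.19% of all guides, and 0 hairpins were lower and 1 was higher, against 6.13% and 5.23% of all targets. The median log2 fold change of DMSO over T0 was 0.05, against 0.00 over all guides. The libraries of both groups did not overlap for 6 guides that were lower with DMSO (4.41%) and 19 that were higher (14%). The shares over all guides were 13.1% and 14.9%. All guides pointed one way in 1 of the 30 hairpins with 4 tested guides, let-7a-3 (positive), against 14.2% of 1319 other microRNAs. The number of guides called depended on the tool and the T0 aliquots: DESeq2 called 4 of the 136 (2.94%, against 5.7% of all guides), and without T0 replicate 1, the edgeR test called 11 of them (8.09%, against 7.13% of all guides), the single remaining aliquot being assumed to vary like the DMSO cultures.

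Of the hairpins above T0, miR-221 had the lowest p. This microRNA represses the cell cycle inhibitor p27 (CDKN1B). Its mean normalised count was 166, 150 and 154 with DMSO against 93.7 and 121 at T0, without overlap. Guide HGLibA_58293 had normalised counts of 43.8, 124 and 46.7 with DMSO and no read in either T0 library. It was 26.7-fold higher with DMSO than a floor of 3 counts set for each T0 library. The floor is a chosen value and does not bound abundance, since 21 of the 139 guides had reads in only 1 T0 library. Guide HGLibA_58291 had 71.2, 72.2 and 173 with DMSO, against 7.53 and 0 at T0, a log2 fold change of 4.75 ± 1.66 (SE; edgeR adjusted p = 0.554). The other guides did not share this pattern: HGLibA_58292 had 187, 218 and 317 with DMSO against 213 and 130 at T0, and HGLibA_58294 had 363, 185 and 80.9 with DMSO against 154.8 and 356 at T0. The median of the 4 guides was 2.62 (2.61 with the absent guide set to its fold over the floor), with exact RRA p = 0.00647 and an adjusted p of 0.819. For miR-222, with the same seed and the same host gene, the median was -0.22 and 3 of 4 guides were negative.

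Both miR-221 guides were rare at T0, where dropout was common in the whole library, and the part of that dropout in these values was not tested. The same holds for HGLibA_57843 against miR-145 and HGLibA_57203 against miR-10b. HGLibA_57843 had 59.2, 13.5 and 21.6 with DMSO and no read at T0 (11.7-fold over the floor). HGLibA_57203 had 38.4, 107 and 13.7 with DMSO against 5.86 and 0 at T0. The other guides against miR-145 did not follow, and the median over its 4 guides was 0.21. The next hairpins on the high side were miR-21, a repressor of PDCD4 (median 0.49, exact RRA p = 0.108), and miR-34c (median 0.61, p = 0.142).

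On the low side of DMSO over T0, miR-92a-1 (median -0.61, exact RRA p = 0.0845), miR-155 (median -1.41, p = 0.086) and miR-205 (median -0.49, p = 0.217) had the lowest p. The guide with the lowest p was HGLibA_64292 against miR-92a-1, with 122, 156 and 118 normalised counts with DMSO against 294 and 485 at T0, a log2 fold change of -1.56 ± 0.50 (SE; edgeR adjusted p = 0.535). All its DMSO cultures lay below both T0 aliquots. HGLibA_57930 against miR-155 had 95.3, 65.0 and 43.3 with DMSO against 168 and 201 at T0, also without overlap. For HGLibA_57116 against let-7d the counts were 20.8, 57.8 and 42.1 with DMSO against 175 and 92.1 at T0, and for HGLibA_57110 against let-7b they were 101, 142.6 and 207 with DMSO against 204.98 and 391 at T0. The let-7d counts did not overlap, whereas the highest DMSO count for let-7b exceeded the lower T0 count.

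By family, the medians of DMSO over T0 were 0.19 for let-7 (range -1.73 to 3.44), -0.12 for miR-17-92 (-1.56 to 1.59), 0.16 for miR-200 (-1.16 to 2.48), 0.09 for miR-34 (-1.23 to 2.20), 0.20 for miR-143 with miR-145, 0.00 for miR-221 with miR-222, -0.14 for miR-19b-2 with miR-92a-2 (-0.79 to 1.01), 1.30 for miR-10b (-0.54 to 4.11) and 0.02 for miR-31 (-0.84 to 1.51). Within miR-17-92, the medians were -0.62 for miR-17, -0.06 for miR-18a, -0.11 for miR-19a, 0.23 for miR-19b-1 and -0.61 for miR-92a-1, and the only guide against miR-20a had 0.67. No difference between these hairpins was tested. The miR-10b median was taken over T0 aliquots that differed, with mean normalised counts of 94.96 in T0 replicate 1 and 29.42 in T0 replicate 2.

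GSI was also compared with T0, a comparison that uses the same T0 aliquots as the one above. It also uses the same GSI cultures as the comparison with DMSO, so it is not independent of either. No cancer microRNA guide or hairpin was called, nor was any other (0% of guides and 0% of targets on either side). At an unadjusted p under 0.05, 4 guides were lower and 4 were higher, against 3.99% and 4.72% of all guides, and 2 hairpins were lower and 1 was higher, against 5.69% and 5.37% of all targets. The median log2 fold change was 0.06, against -0.02 over all guides. The libraries of both groups did not overlap for 12 guides that were lower with GSI (8.82%) and 18 that were higher (13.2%). The shares over all guides were 13.6% and 15.7%. DESeq2 called 6 of the 136 guides (4.41%, against 6.77% of all guides). Without T0 replicate 1, the edgeR test called 23 of them (16.9%, against 18.1% of all guides), and without T0 replicate 2 it called 4 (2.94%, against 4.72%).

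The 2 hairpins on the low side were miR-205 and miR-92a-1. For miR-205, mean normalised counts were 127, 105 and 91.9 with GSI against 227 and 191 at T0, with all 4 guides negative, a median of -1.07 ± 0.58 (SD over 4 guides), exact RRA p = 0.0121 and an adjusted p of 0.649. Guide HGLibA_58177 had 114, 108 and 64.7 with GSI against 277 and 192 at T0 (edgeR adjusted p = 0.562). The GSI cultures thus lay below both T0 aliquots, and for the mean of the hairpin the DMSO cultures (148, 138 and 148) did too. For miR-92a-1 the median was -0.76 with 2 guides on each side of 0 (exact RRA p = 0.0319, adjusted p = 0.81), and guide HGLibA_64292 had 125, 129 and 94.0 with GSI against 294 and 485 at T0 (edgeR adjusted p = 0.475).

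Other low values were less even. The median was -1.39 for miR-155 (exact RRA p = 0.0756), whose guide HGLibA_57932 had 105, 56.4 and 64.7 with GSI against 92 and 374 at T0, the lower T0 count being inside the range of the GSI counts. For let-7d, HGLibA_57116 had 21.5, 35 and 27.2 with GSI against 175 and 92.1 at T0 (edgeR adjusted p = 0.517), while the other 3 guides were positive. All 4 guides against miR-222 were negative (median -0.92, exact RRA p = 0.0899). Among the 30 hairpins with 4 tested guides, all guides pointed one way in 3, against 14.2% of 1319 other microRNAs. These were miR-205 and miR-222, negative, and miR-34c, positive.

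On the high side, miR-221 again had the lowest p, with exact RRA p = 0.00113 and an adjusted p of 0.821. Its median was 2.84 (2.34 with the absent guide set to its fold over the floor). HGLibA_58291 had 117, 205.04 and 137 with GSI against 7.53 and 0 at T0 (edgeR adjusted p = 0.475). HGLibA_58293 had 44.4, 16.7 and 94.0 with GSI and no read at T0, 19.3-fold over the floor. HGLibA_57843 against miR-145 had 24.2, 1.59 and 41.8 with GSI and no read at T0 (8.41-fold over the floor), of which GSI replicate 2 held 2 reads. That culture lay under the floor of 3 reads set for the T0 libraries. The folds over the floor are not lower bounds, and the part of T0 dropout in them was not tested. Between GSI and DMSO the counts of these guides overlapped.

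The remaining hairpins with low p were miR-429 (median 0.92, exact RRA p = 0.0586) and miR-21 (median 0.83, p = 0.098). HGLibA_58207 against miR-21 had 245, 366 and 270 with GSI against 126 and 125 at T0 (log2 fold change 1.22 ± 0.45, SE; edgeR adjusted p = 0.513), and all GSI cultures exceeded both aliquots. By family, the medians of GSI over T0 were 0.15 for let-7 (range -2.25 to 3.04), 0.05 for miR-17-92 (-1.75 to 1.48), 0.46 for miR-200 (-1.02 to 1.997) and 0.04 for miR-34 (-1.29 to 2.55). They were 0.02 for miR-143 with miR-145 (-0.79 to 7.56) and -0.17 for miR-221 with miR-222 (-1.27 to 8.75), both upper ends being guides with no read at T0. The other medians were -0.12 for miR-19b-2 with miR-92a-2 (-0.46 to 0.43), 1.16 for miR-10b (-0.13 to 2.72) and 0.46 for miR-31 (-0.45 to 1.43). For miR-10b, which promotes invasion in breast cancer cells, 3 of 4 guides were positive, but the T0 aliquots differed. Its mean normalised count was 109.4, 125.6 and 109.4 with GSI, against 94.96 in T0 replicate 1 and 29.42 in T0 replicate 2. Guides HGLibA_57202 and HGLibA_57203 had no read in T0 replicate 2. The part of that aliquot in the miR-10b medians of GSI and DMSO over T0 was not tested.

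The genes that make and use microRNAs were measured in the same libraries with 4 to 6 guides each. The list held 21 genes, from DROSHA, DGCR8, XPO5 and DICER1 to the Argonaute and TNRC6 genes of the silencing complex and the let-7 regulators LIN28A and LIN28B, and 0 of 21 were called in any comparison on either side. For GSI over DMSO, 11 of 21 had a negative median. The lowest p values were those of DDX5, a helicase of the DROSHA complex, on the high side (median 1.03, exact RRA p = 0.00219, adjusted p = 0.722) and of TARBP2, a partner of DICER1, on the low side (median -0.57, p = 0.014, adjusted p = 0.977). For DMSO over T0, 17 of 21 medians were negative, with DDX5 at -2.11 (exact RRA p = 0.00624, adjusted p = 0.424), XPO5, which exports hairpins from the nucleus, at -1.21 (p = 0.00703) and DGCR8, the partner of DROSHA, at -1.67 (p = 0.0134). For GSI over T0, 19 of 21 were negative, with AGO2, the slicing Argonaute, at -0.38 (exact RRA p = 0.00115, adjusted p = 0.373) and XPO5 at -1.76 (p = 0.0154). In this comparison DDX5 was at -0.83 (exact RRA p = 0.425 on the low side). Both DDX5 values given above use the same DMSO cultures. The median over the 21 genes was -0.04 for GSI over DMSO, -0.41 for DMSO over T0 and -0.34 for GSI over T0. The share of negative medians over all targets is not given here, and a shift of the 21 genes was not tested. Of 109329 single guides against genes, 54762 were negative for DMSO over T0 and 55728 for GSI over T0.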

How the data were processed

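Guide inserts were read by sequencing of PCR products. According to the labels, the authors used bcl2fastq 2.19, FastQC 0.11.5 and MAGeCK 0.5.9.2, and the deposited table holds raw read counts per sgRNA for the combined GeCKOv2 library. A deposited normalised table was not used here. No molecular identifiers were used, so that reads cannot be taken as separate molecules and depth covers counting error only.

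Counts were divided by median-ratio size factors. Guides averaging 10 or more reads over the 8 libraries were tested with edgeR 4.0.16 (R 4.3.3, limma 3.58.1; glmQLFit and glmQLFTest), each fit holding only the groups compared, with adjustment over all guides. RRA was applied to ranks of one-sided guide p-values (alpha 0.25, null computed exactly), to genes and microRNAs together with at least 4 listed and 3 tested guides, low and high side apart. A call is an adjusted p under 0.05. The SE of a guide was derived from the edgeR test, as its absolute log2 fold change divided by the square root of the F statistic. Fold changes of hairpins are medians over guides. Scripts were tested on simulated data. For each comparison the 3 hairpins and 4 guides with the lowest p on each side were named, with up to 3 processing genes. The members and lists were chosen with earlier results of these data known. Alternatives were other scalings, other count filters, DESeq2 1.42.0, limma on target means, all libraries in 1 fit, a replicate block and leaving out each library. The sequences of the guides were not analysed here.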

Additional observations from a re-analysis of the deposited data

How the results depend on the processing

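No cancer microRNA hairpin was called in any comparison under any alternative run, and no guide was called for GSI over DMSO. Guide calls against T0 depended on the tool and on the T0 aliquots. DESeq2 called 4 of the 136 guides for DMSO over T0 (2.94%, against 5.7% of all guides, 6661 in number). For GSI over T0 it called 6 (4.41%, against 6.77% of all guides, 7913 in number). Leaving out 1 library gave 0 to 11 guides for DMSO over T0 and 0 to 23 for GSI over T0, the highest without T0 replicate 1, and in these fits the lone aliquot is assumed to vary like the other group. The cause was not tested. The guides that gained a call included HGLibA_58291 and HGLibA_58293 against miR-221 and HGLibA_64292 against miR-92a-1.

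The median log2 fold change over the 136 guides moved with the scaling, as did that of all guides. For GSI over DMSO it was -0.22 with library totals (all guides -0.22), where the VPS33B guide enters the total of GSI replicate 1. For DMSO over T0 it was -0.21 with scaling to non-targeting controls (all guides -0.26), -0.051 with a mean count of at least 50 and 0.23 with the replicate block (all guides 0.17), and -0.028 to 0.26 when 1 library was left out. For GSI over T0, leaving out 1 library gave 0.00049 to 0.29.

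Same-numbered GSI and DMSO libraries correlated at 0.28, 0.06 and 0.12 in their deviations from the group means, so the numbers were not taken as pairs, although each library correlated best with its own number. With the replicate block, 0 guides and 0 hairpins were called in each comparison. The median of let-7d for GSI over DMSO reversed to -0.16 with library totals, and leaving out 1 library gave -0.045 (without DMSO replicate 1) to 0.26, also turning it without GSI replicate 3. That of let-7f-1 reversed to 0.0088 with non-targeting scaling, and leaving out 1 library gave -0.34 to 0.18, turning it without DMSO replicate 1 (0.14) and without GSI replicate 2 (0.18). For miR-92a-1 in GSI over T0, limma on target means gave 0.014.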
